A study of Mus musculus with 34 samples.

Results

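Primary mouse neural stem cells that carried a constitutively active STAT3 (STAT3C) were compared with the same kind of cells that carried the empty vector. The arrays were chosen by their labels. They are 4 arrays of cells transduced with the STAT3C retroviral vector and 5 arrays of cells transduced with the control retrovirus pBabe, 9 of the 34 arrays of the series. Both groups are neural stem cells (NSC) taken from the E13.5 mouse telencephalon, and neither received CEBPB. The series asks how STAT3 and CEBPB act in the mesenchymal transformation of brain tumours. The labels give no strain, no time after transduction, no promoter driving the transgene and no share of cells that carried it. Whether arrays of a group are separate cultures is not stated, so the p-values measure the spread between these arrays, which may be technical.

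STAT3 is a transcription factor that lies idle in the cytoplasm until a cytokine receptor, such as the one for interleukin 6, brings it to a JAK kinase. The phosphorylated protein forms a dimer, enters the nucleus and binds DNA at paired half-sites with the letters TTC and GAA. Among its targets is Socs3, which shuts the receptor down again, and in the developing forebrain the pathway is known for turning neural precursors towards astrocytes. The STAT3C mutant carries cysteine substitutions that let it form dimers without the cytokine.

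The promoters of 5 genes that the results turn on are shown first, as the 250 bases before an annotated transcript start in RefSeq's GRCm38.p6 assembly, written 5′ to 3′ on the gene's strand. Capitals mark the STAT letters TTCNNNGAA and the letters ACGTG or GCGTG in either direction (CACGT or CACGC on the other strand), which are the core of sites bound by hypoxia-inducible factor. Socs3 is shown as the feedback target with a STAT match, and Il1r2 because it had the lowest p-value of the comparison. P4ha1, P4ha2 and Ankrd37 are shown because they are hypoxia-inducible genes that lay lower on the STAT3C arrays.
Socs3, chr11:117969367-117969616, minus strand: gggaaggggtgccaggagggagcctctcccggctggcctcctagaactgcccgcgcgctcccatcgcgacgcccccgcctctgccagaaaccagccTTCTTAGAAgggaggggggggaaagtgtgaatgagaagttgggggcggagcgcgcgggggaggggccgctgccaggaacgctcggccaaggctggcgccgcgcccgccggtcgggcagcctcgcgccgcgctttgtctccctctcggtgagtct
Il1r2, chr1:40085843-40086092, plus strand: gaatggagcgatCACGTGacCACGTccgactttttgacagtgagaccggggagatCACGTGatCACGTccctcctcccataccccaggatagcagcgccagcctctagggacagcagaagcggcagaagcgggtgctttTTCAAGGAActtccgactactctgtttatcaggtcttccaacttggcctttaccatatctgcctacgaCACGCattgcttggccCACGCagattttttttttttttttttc
P4ha1, chr10:59323046-59323295, plus strand: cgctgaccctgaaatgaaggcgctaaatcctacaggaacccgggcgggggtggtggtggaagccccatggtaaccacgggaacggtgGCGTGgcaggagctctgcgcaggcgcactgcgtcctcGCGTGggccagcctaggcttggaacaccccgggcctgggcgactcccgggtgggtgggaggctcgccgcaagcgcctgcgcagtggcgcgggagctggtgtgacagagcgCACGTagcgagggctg
P4ha2, chr11:54100674-54100923, plus strand: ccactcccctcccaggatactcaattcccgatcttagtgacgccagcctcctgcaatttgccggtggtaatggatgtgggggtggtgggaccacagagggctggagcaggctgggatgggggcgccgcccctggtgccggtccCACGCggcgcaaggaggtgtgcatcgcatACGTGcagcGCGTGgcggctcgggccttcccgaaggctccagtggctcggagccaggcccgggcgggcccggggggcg
Ankrd37, chr8:45999851-46000100, minus strand: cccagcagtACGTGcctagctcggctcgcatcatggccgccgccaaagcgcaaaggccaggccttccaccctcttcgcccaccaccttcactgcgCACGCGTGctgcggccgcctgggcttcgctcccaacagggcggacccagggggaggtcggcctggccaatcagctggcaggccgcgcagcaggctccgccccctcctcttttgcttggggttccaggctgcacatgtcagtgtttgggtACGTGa
The STAT letters stood in 5 of the 32 STAT3 target genes with a promoter in the table (15.62%), against 7.277% of all tested genes that had one. The hypoxia letters stood in 30 of 33 promoters of glycolysis and hypoxia genes (90.91%), against 61.09% of all tested genes. Of other genes described below, Egln3 had 1 hypoxia match and no STAT match, Serpina3n and Pcsk6 had neither, and Vegfa had neither in the window of one annotated start and 2 hypoxia matches in that of the other. The 2 sets of letters can overlap, and a match is a description of the sequence and not a binding site.

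The 9 arrays lay on 2 slides, here called A and C. Slide A held STAT3C arrays 1 to 3 and control arrays 1 to 3, and slide C held STAT3C array 4 and control arrays 4 and 5. On slide A the groups took different strip positions, so position and vector cannot be told apart there. Between 36.9% and 41.7% of the probes were detected on an array. Levels are normalised log2 signals, and a gene was tested where its probe was detected (p below 0.05) on at least 4 of the 18 NSC arrays. Nestin (Nes), vimentin (Vim), the radial glia transporter Slc1a3, Fabp7, Hes1 and Sox2 were detected on all 9 arrays. Other neural stem cell markers were not: both Pax6 probes, both Msi1 probes and the second Vim probe were detected on 0 of 9 arrays, and of 2 Hes5 probes one was detected on 0 STAT3C arrays and 1 control array and the other on 2 STAT3C and 0 control arrays. Of the astrocyte markers, the tested Aqp4 probe was detected on all 9 arrays and the tested Gfap probe on 3 STAT3C and 4 control arrays. Group means without the slide block, STAT3C first, were 5.55 and 6.03 for Aqp4 and 5.93 and 5.73 for Gfap. The second Aqp4 probe was detected on 0 of 9 arrays and the second Gfap probe on 3 STAT3C and 2 control arrays. The myelin gene Mbp was detected on 1 STAT3C and 2 control arrays. Of 16 microglia and macrophage genes 5 were tested, with a median change of -0.00429. Aif1, a gene of microglia, was detected by 1 of its 3 probes on 4 STAT3C and 4 control arrays at low levels. That probe read 5.01 to 5.36 on STAT3C and 4.80 to 5.58 on control arrays, which overlapped. Of the other Aif1 probes, one was detected on 1 STAT3C array and 0 control arrays and the other on 0 of 9 arrays. Csf1r, the receptor that microglia depend on, was detected by 1 of its 2 probes, on 2 STAT3C and 4 control arrays. The second Csf1r probe, the Cx3cr1 probe and all 4 Ptprc probes were detected on 0 of 9 arrays. The part of such cells in the results was not tested.

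Several arrays stood apart in ways that the vector labels do not define. Control 3 correlated with the other slide A arrays at 0.968 to 0.973 across genes, whereas those 5 arrays correlated with each other at 0.992 to 0.997. It differed from the mean of controls 1 and 2 by more than 1 on the log2 scale for 572 genes, while controls 1 and 2 differed from each other by that much for 1 gene. Control 5 differed from control 4 by that much for 835 genes. Xist, the RNA that silences an X chromosome in female cells, was not detected on STAT3C 4 and control 4, where the Y-linked gene Eif2s3y gave signals of 413.7 and 437.3. On the other 7 arrays that Eif2s3y probe stayed between -12.03 and 7.282. STAT3C 4 and control 4 correlated at r = 0.992 and differed by more than 1 for 29 genes, and they are called the slide C pair below.

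**Figure D1:**
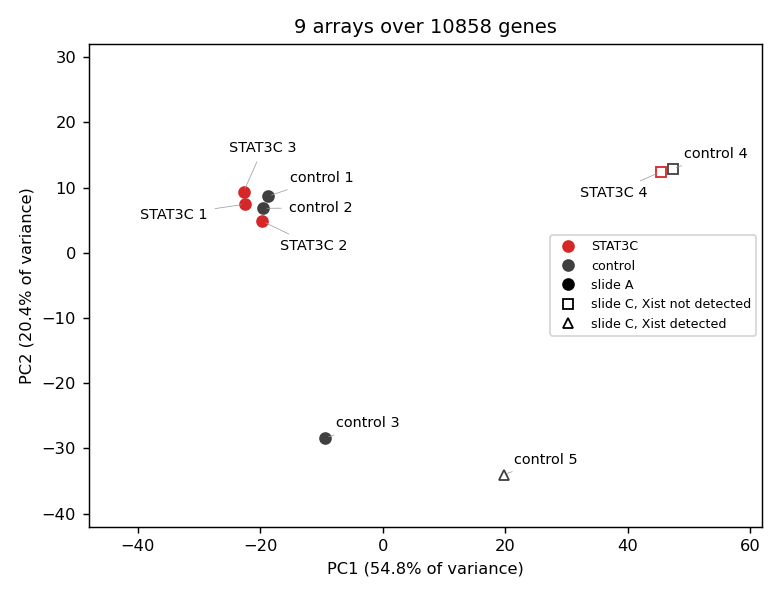
Principal components of the 9 arrays over 10858 genes, with PC1 (54.8% of the variance) across and PC2 (20.4%) up the page; red is STAT3C, black is control, and the marker gives the slide and whether Xist was detected. STAT3C arrays 1 to 3 lie with controls 1 and 2, STAT3C 4 lies beside control 4, and controls 3 and 5 lie apart from both.

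With slide as a block over all 18 NSC arrays, limma called 0 of 10858 genes (0%) at a Benjamini-Hochberg adjusted p below 0.05. At an unadjusted p below 0.05 there were 558 genes (5.14%), 329 of them higher (3.03%) and 229 lower (2.11%) on the STAT3C arrays. The smallest adjusted p was 0.728. The median standard error (SE) of a change was 0.144, and 4 genes had a fitted change of more than 1. The genes below are therefore described by their values, and none of them passed this test unless another fit is named. Across genes, the change on slide A and the difference of STAT3C 4 and control 4 on slide C were unrelated, with r = 0.00792. Genes are not independent replicates, and this r is a description. In these bulk samples fewer cells of a type and less RNA per cell cannot be told apart.

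The transcript of Stat3 itself was close in both groups. Its brightest probe read 11.06, 10.85, 10.80 and 10.78 on STAT3C arrays 1 to 4, against 11.06, 10.97, 10.05, 10.78 and 10.17 on control arrays 1 to 5. The STAT3C arrays lay level with controls 1, 2 and 4, and the control arrays 3 and 5 were low. The fitted Stat3 change was 0.24 (SE 0.19, 95% interval -0.16 to 0.64, limma adjusted p 0.875). It was -0.11 on slide A without control 3 and 0.00 between STAT3C 4 and control 4. Of its 2 other probes, one read 9.711 to 10.058 on STAT3C arrays and 9.295 to 9.967 on controls, and the other 8.056 to 8.247 on STAT3C arrays and 7.894 to 8.515 on controls. Whether any of the 3 probes can hybridise to the transcript of the vector is not given in the sources used here, so they do not check the transduction.

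Among feedback inhibitors of the pathway, Socs3 read 9.0, 9.07 and 9.02 on STAT3C arrays 1 to 3, against 8.61, 8.72 and 8.56 on controls 1 to 3. On slide C it read 6.82 on STAT3C 4, against 7.17 on control 4 and 8.60 on control 5. All 3 STAT3C arrays of slide A were above the 3 controls, while STAT3C 4 was below both controls of its slide. The fitted Socs3 change was -0.05 (SE 0.31, interval -0.70 to 0.60), with 0.40 on slide A and -0.34 for STAT3C 4 minus control 4. Cish, another inhibitor of the receptor complex, read 5.88, 5.80, 5.84 and 6.0 on STAT3C arrays and 5.94, 5.81, 6.23, 6.7 and 7.0 on controls. Its change was -0.37 (SE 0.13, limma adjusted p 0.854), and most of it lay on slide C, where the difference within the pair was -0.70 and the one on slide A was -0.15. Of 13 tested inhibitors 5 had a positive and 8 a negative change, with a median of -0.09.

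Of 15 tested receptors, kinases and STAT factors 10 had a positive change, and the median was 0.05. Il6ra, the interleukin 6 receptor, read 6.60, 6.48, 6.51 and 4.61 on STAT3C arrays, against 5.82, 5.85, 6.45, 4.66 and 4.77 on controls, and its probe was detected on 3 STAT3C and 3 control arrays. All STAT3C arrays of slide A were above the controls of that slide, control 3 by little, and STAT3C 4 was below both controls of slide C. The Il6ra change was 0.30 (SE 0.21), with 0.49 on slide A and -0.05 within the slide C pair. It passed the limma threshold with array weights (0.58, adjusted p 0.0192) and without both control 3 and the arrays on which Xist was not detected (0.69, adjusted p 0.0157). Jak2, the kinase of many cytokine receptors, had a change of -0.34 (SE 0.14), and Ifngr2, a chain of the interferon gamma receptor, one of 0.24 (SE 0.10). The 4 Ifngr2 values on STAT3C arrays were 6.73, 6.82, 6.69 and 6.79, against 6.64, 6.5, 6.35, 6.59 and 6.58 on controls. These groups did not overlap, but the gap was narrow.

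Of 40 tested genes known as STAT3 targets, 22 had a positive change and 18 a negative one, with a median of 0.03, against 0.02 over all genes. At an unadjusted p below 0.05, 1 was higher and 2 were lower (Cish and Vegfa), where 3.03% of all genes were higher and 2.11% lower. On slide A 7 of the 40 were above all 3 controls on all 3 STAT3C arrays, against 11.3% of all genes. On arrays with both factors minus arrays with CEBPB alone the list's median was 0.21, against -0.01 over all genes. There 5 were called higher and 1 lower by limma, where 3.22% of all genes were called higher and 3.24% lower. The largest difference was 1.71 for Lcn2, whose probe was detected on 0 STAT3C and 0 control arrays. Lcn2 is among the 40 only because arrays that carried CEBPB detected it, and its sign in the STAT3C comparison is background. Pim1, a survival kinase, had a change of 0.06 (95% interval -0.17 to 0.30), Myc one of -0.14 (-0.59 to 0.30), Bcl2l1, an inhibitor of cell death, one of -0.25 (-0.72 to 0.22) and Mcl1, its relative, one of 0.25 (-0.05 to 0.55). Gadd45g, a growth arrest gene, had a change of 0.19 (-0.15 to 0.53).

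The target with the largest change was Serpina3n, a secreted protease inhibitor of the acute-phase response and of reactive astrocytes. It read 7.41, 7.27, 7.43 and 7.20 on STAT3C arrays and 6.41, 6.31, 5.12, 7.45 and 6.89 on controls. All STAT3C arrays of slide A were above all controls of that slide, with a change of 1.43, whereas STAT3C 4 was 0.25 below control 4. Without control 3, the lowest of the controls, the slide A change of Serpina3n was 1.01. The fitted Serpina3n change was 1.0 (SE 0.42, limma adjusted p 0.854). On arrays with both factors minus arrays with CEBPB alone the difference was 1.46 (SE 0.42, adjusted p 0.0505).

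Of the 20 genes with the lowest p-values, 10 were higher and 10 were lower on the STAT3C arrays, with changes of 0.36 to 0.97 in size, SE 0.09 to 0.20 and limma adjusted p of 0.728 to 0.817. Il1r2 encodes a decoy receptor that binds interleukin 1 without passing on a signal. It read 6.14, 6.13, 6.36 and 5.25 on STAT3C arrays, against 5.32, 5.56, 4.47, 4.50 and 4.63 on controls. Each STAT3C array was above the controls of its own slide, with a change of 0.97 (SE 0.18), 1.09 on slide A and 0.74 within the slide C pair. Without control 3 the slide A change of Il1r2 was 0.77. The Il1r2 probe was detected on 4 of 4 STAT3C arrays and on 2 of 5 control arrays.

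Others of the higher 10 have roles in membrane traffic and protein processing. Rab15, a small GTPase of endosomes, read 7.85, 7.85, 7.89 and 7.44 on STAT3C arrays and 7.34, 7.35, 7.32, 6.99 and 7.13 on controls. The groups did not overlap, and the change of 0.48 (SE 0.11) was close to 0.52 on slide A and 0.45 within the slide C pair. Pcsk6, a proprotein convertase that cleaves secreted growth factors, read 7.55, 7.45, 7.61 and 7.46 on STAT3C arrays and 6.7, 6.84, 6.67, 7.16 and 7.48 on controls. Control 5 reached the STAT3C range, and the other 4 controls lay below it. The Pcsk6 change was 0.59 (SE 0.14).

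The remaining 7 of the higher genes were Cracr2a, a calcium sensor, Rrp8, a nucleolar enzyme, Wdr53, the scramblase Xkr8, the dehydrogenase Cryl1, the tetraspanin Tspan17 and Mrpl49, a protein of the mitochondrial ribosome. Cracr2a had a change of 0.46, Rrp8 0.51, Wdr53 0.45, Xkr8 0.36, Cryl1 0.54, Tspan17 0.78 and Mrpl49 0.41. The slide A change of Mrpl49 was 0.45 with control 3 and 0.29 without it. Tspan17 read 7.97 on both STAT3C 4 and control 4, so its change came from slide A and control 5.

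The lower 10 held Vegfa, the growth factor of blood vessels, and both P4ha1 and P4ha2, catalytic subunits of the prolyl 4-hydroxylase that matures collagen. Vegfa read 8.82, 8.73, 8.89 and 9.91 on STAT3C arrays and 9.88, 9.26, 9.88, 10.52 and 10.20 on controls. Every STAT3C array lay below each control of its slide. The Vegfa change was -0.73 (SE 0.17), with -0.86 on slide A and -0.61 within the slide C pair, and a second detected probe differed the same way. P4ha1 read 7.99, 7.82, 8.13 and 7.86 on STAT3C arrays and 8.64, 8.27, 9.17, 8.25 and 8.61 on controls, with no overlap and a change of -0.67 (SE 0.17). P4ha2 read 5.03, 4.81, 5.08 and 4.80 on STAT3C arrays, 2 of which detected it, and 5.56, 5.13, 6.11, 5.63 and 6.5 on controls, all of which did. Its groups did not overlap either, and the P4ha2 change was -0.82 (SE 0.20). On slide A it was -0.63 with control 3 and -0.37 without it.

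Acss2, which makes acetyl-CoA from acetate, read 9.11, 9.02, 9.02 and 9.43 on STAT3C arrays and 9.87, 9.44, 9.68, 10.16 and 10.20 on controls. The highest STAT3C value was just below the lowest control, and the change was -0.66 (SE 0.17). The other 6 lower genes were Rbm41, an RNA-binding protein, Nwd1, the actin regulator Whamm, Tmtc2, Dnali1, a light chain of ciliary dynein, and Ptges3l. Rbm41 had a change of -0.52, Nwd1 -0.60, Whamm -0.47, Tmtc2 -0.46, Dnali1 -0.57 and Ptges3l -0.53. On slide A, leaving out control 3 took Nwd1 to -0.32, against -0.54 with it, and Tmtc2 to -0.33, against -0.52.

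**Figure D2:**
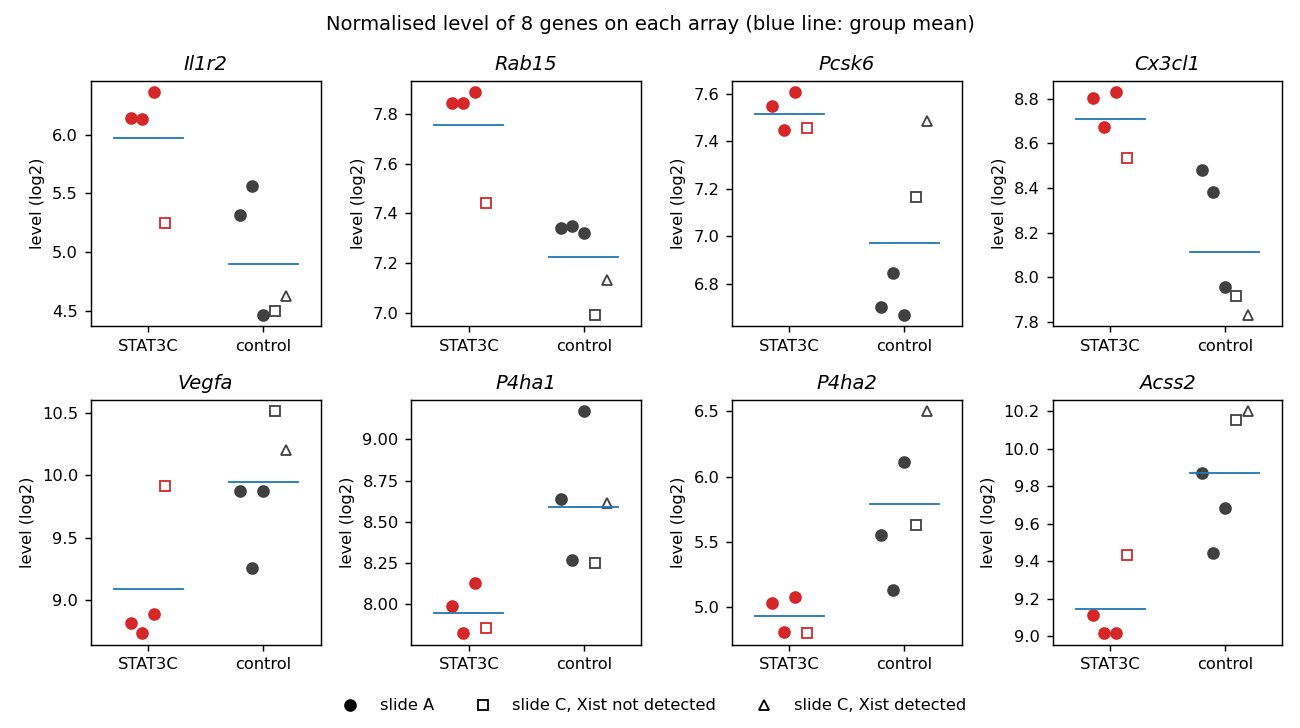
Normalised log2 level of 8 genes on each array, STAT3C left and control right, with the blue line at the group mean and the marker giving the slide and Xist status. Il1r2, Rab15, Pcsk6 and Cx3cl1 were higher on STAT3C arrays of slide A than on its controls, and Vegfa, P4ha1, P4ha2 and Acss2 were lower.

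Arrays of other NSC allowed these 20 genes to be read a second time, because the arrays with CEBPB alone and with both factors entered neither group above. Most of them lay on a further slide, B, where the groups took different strip positions, as on slide A. In each comparison of both factors with CEBPB alone, position and vector cannot be told apart on that slide. On slide C, array 5 with both factors departed from array 4 much as control 5 did from control 4 (r = 0.6876 across genes). The labels of the arrays with both factors name STAT3 and CEBPB without saying that the STAT3 is the active mutant. In that comparison 702 genes were called (6.47%), 3.22% of all genes higher and 3.24% lower, and 15 of the 20 genes had the same sign (75.0%), against 50.3% of all genes. Pcsk6 rose by 1.16 (SE 0.14, limma adjusted p 0.00042) and Tspan17 by 0.72. Vegfa fell by 0.73 (SE 0.17, limma adjusted p 0.0198) and Ptges3l fell by 0.57, while Mrpl49 went the opposite way and fell by 0.38. Il1r2 had a difference of -0.20 there (adjusted p 0.587), which did not pass the test.

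Genes of glycolysis and the hypoxia response lay lower on the STAT3C arrays. When oxygen is short, hypoxia-inducible factor turns on glucose uptake, glycolysis, vessel growth and collagen maturation, and prolyl hydroxylases such as Egln3 mark the factor for degradation when oxygen returns. Of 38 tested genes 33 had a negative change (86.8%, against 45.5% of all genes), with a median of -0.28 against 0.02 over all genes. At an unadjusted p below 0.05, 9 were lower and 0 higher, where 2.11% of all genes were lower, and 0 passed the limma adjusted threshold. The mean level of the 38 genes was 8.55, 8.53, 8.58 and 8.77 on STAT3C arrays 1 to 4, against 8.91, 8.67, 9.0, 8.90 and 9.09 on controls 1 to 5. Each STAT3C array was below every control of its slide.

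Control 3 carried part of the difference, since the list median on slide A was -0.32 with it and -0.21 without it. On slide A, 17 of the 38 genes were below all 3 controls on all 3 STAT3C arrays, against 7.24% of all genes. Of these 17, 13 were also lower on STAT3C 4 than on control 4, against 407 of the 786 such genes over all. Both held for 13 of the 38, against 3.75% of all genes. Within the slide C pair 24 of 38 were negative (49.1% of all genes were; 50.7% were positive), with a median of -0.13.

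By role, all 13 glycolytic enzymes had a negative change, with a median of -0.35, but 8 of them were negative within the slide C pair, where their median was -0.04. Pfkl, the liver-type phosphofructokinase, read 10.38, 10.40, 10.36 and 11.60 on STAT3C arrays and 10.99, 10.89, 11.65, 11.56 and 11.68 on controls. It was low on slide A and level with control 4 on slide C, and the Pfkl change was -0.56 (SE 0.20). Of 4 regulators of glycolytic flux and lactate export 1, Pdk1, was negative, and their median was 0.10, with 0.11 on slide A and 0.14 within the pair. Pgk1, phosphoglycerate kinase, had a change of -0.35 (SE 0.14), Aldoc, the aldolase of brain, -0.50 (SE 0.22), and Ldha, which makes lactate, -0.35 (SE 0.16).

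Pdk1, a kinase that keeps pyruvate out of mitochondria, read 6.90, 6.81, 6.97 and 8.09 on STAT3C arrays and 8.04, 7.47, 8.61, 8.22 and 7.85 on controls. On slide A its groups were well apart, with a change of -1.14, and within the slide C pair the Pdk1 difference was -0.14. All 3 collagen-modifying enzymes (P4ha1, P4ha2 and Plod2) were negative on both slides, with a median of -0.67. Ankrd37, a hypoxia-inducible gene of ankyrin repeats, read 5.66, 5.49, 5.81 and 8.12 on STAT3C arrays and 6.53, 6.13, 6.33, 8.72 and 6.92 on controls. The 2 arrays on which Xist was not detected were the highest, and the Ankrd37 difference was -0.68 on slide A and -0.60 within the pair. Egln3 differed by -0.20 on slide A and -0.50 within the pair. Ddit4, an inhibitor of growth signalling, differed by -0.44 on slide A, -0.15 there without control 3, and -0.36 within the pair.

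**Figure D3:**
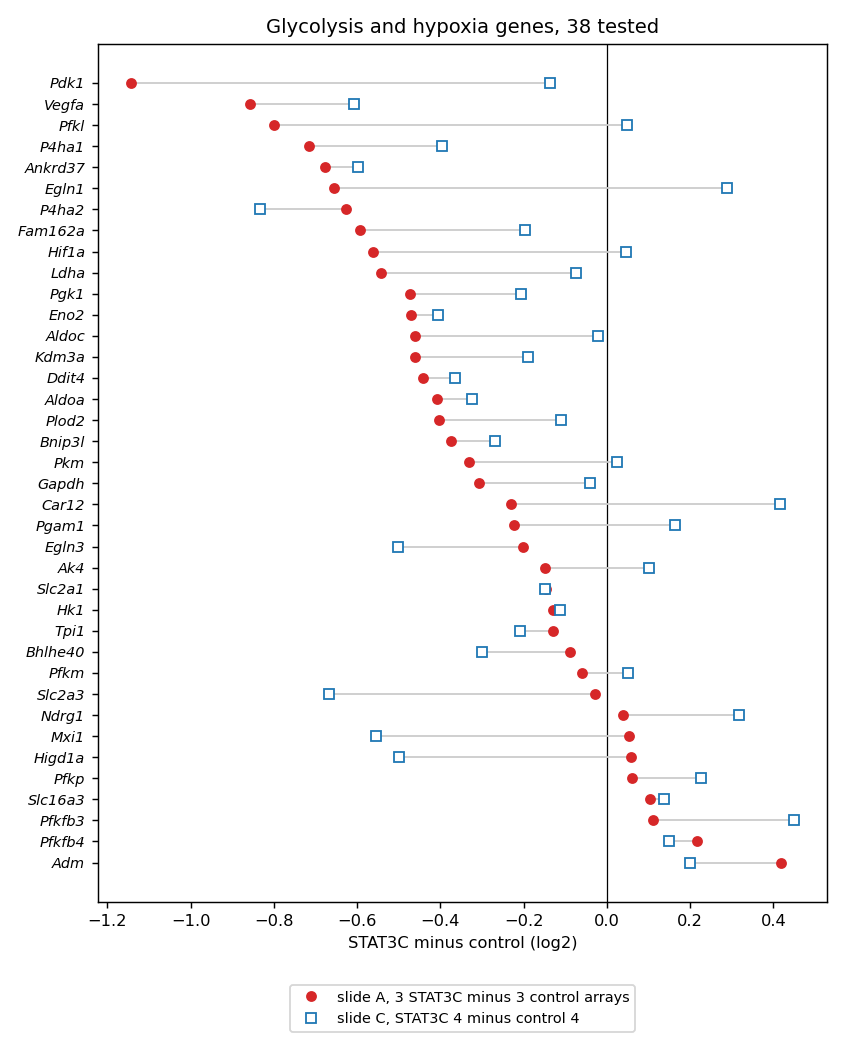
STAT3C minus control log2 difference of the 38 glycolysis and hypoxia genes, ordered by the slide A value; red points are slide A (3 arrays against 3) and blue squares STAT3C 4 minus control 4 on slide C. Most red points lie left of 0, down to -1.14 for Pdk1, and 24 of the 38 squares do.

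On arrays with both factors minus arrays with CEBPB alone, the glycolysis and hypoxia genes had a median of -0.34, against -0.01 over all genes. Most of these arrays lay on slide B, where strip position and vector cannot be told apart, as on slide A. Of the 38, 11 fell at the limma adjusted threshold and 0 rose, where 3.24% of all genes were called lower and 3.22% higher. Pdk1 fell by 1.41 (limma adjusted p 0.0064), Pfkl fell by 0.80 (limma adjusted p 0.025), Ldha fell by 0.65 and Egln3 fell by 0.83. In the C17.2 line, an immortalised mouse neural stem cell line, all STAT3C arrays lay on 1 slide and all control arrays on another, so no C17.2 value can be told apart from a slide difference. The median of this list for STAT3C minus control was 0.01 there, and Vegfa differed by 0.89 (SE 0.25, limma adjusted p 0.0546).

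Of 18 tested cholesterol synthesis genes, 16 had a negative change, against 45.5% of all genes, and the median was -0.14. At an unadjusted limma p below 0.05, 1 was lower and 0 higher, where 2.11% of all genes were lower and 3.03% higher. Their mean level was 8.53, 8.61, 8.50 and 8.77 on STAT3C arrays, against 8.72, 8.66, 9.06, 8.98 and 8.59 on controls. Each STAT3C array of slide A was below the controls of that slide, and STAT3C 4 was below control 4 and above control 5. All 18 were lower on STAT3C 4 than on control 4, by 0.06 to 0.40 on the log2 scale, against 49.1% of all genes, and 7 of them were also below on all arrays of slide A, against 3.75% of all genes. Dhcr7, the enzyme of the last step to cholesterol, read 8.03, 8.19, 8.04 and 8.29 on STAT3C arrays and 8.41, 8.40, 9.48, 8.45 and 8.94 on controls. No STAT3C array reached a control, and control 3 was the highest. The Dhcr7 change was -0.59 (SE 0.18). On slide A the Dhcr7 change was -0.67 with control 3 and -0.31 without it. Insig1, which holds back the activation of this pathway, had a change of -0.56 (SE 0.27), with -0.76 on slide A and -0.33 there without control 3. Pmvk, the phosphomevalonate kinase, had one of -0.21 (SE 0.13). On arrays with both factors minus arrays with CEBPB alone, the list ran from -0.42 for Srebf2 to 0.58 for Sqle, with a median of -0.09, and in C17.2 its median was 0.56, with slide and vector not told apart.

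Mesenchymal genes of glioma did not pass the test and leaned to the higher side on slide A. Of 51 tested, 31 had a positive change, against 54.5% of all genes, with a median of 0.06. On slide A 15 of them were above all controls on all STAT3C arrays, against 11.3% of all genes. In the slide C pair 6 of these 15 were also above, against 634 of the 1227 such genes over all. Both held for 6 of the 51, against 5.84% of all genes. The list's mean level was 8.09, 8.13, 8.13 and 7.41 on STAT3C arrays and 7.79, 7.85, 8.08, 7.44 and 7.85 on controls, so STAT3C 4 and control 4 were level. Lgals1, a secreted galectin, read 12.88, 12.89, 12.91 and 12.58 on STAT3C arrays and 12.21, 12.54, 12.31, 12.71 and 12.78 on controls, with STAT3C above the controls on slide A and below them on slide C. Its relative Lgals3 read 7.47, 7.41, 7.47 and 5.21 on STAT3C arrays and 6.56, 6.76, 5.90, 4.56 and 6.31 on controls, and it was higher in both slide A (1.04) and the slide C pair (0.65). Cd44, the hyaluronan receptor, had a change of 0.48 on slide A and -0.25 in the pair, and the collagen Col5a1 0.84 and -0.29.

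The 6 other tested genes of the list of mesenchymal module regulators had changes of -0.31 to 0.09. None had an unadjusted limma p below 0.05. Fosl1, also on that list, had no probe with 1 symbol. The changes were -0.31 for Cebpb (SE 0.15), 0.08 for Cebpd, -0.29 for Fosl2, -0.20 for Runx1, -0.13 for Bhlhe40 and 0.09 for Zbtb18. Cebpb read 8.13, 8.37, 8.13 and 8.28 on STAT3C arrays and 8.12, 8.28, 8.91, 8.56 and 9.0 on controls, where controls 3 and 5 were high and controls 1 and 2 were level with STAT3C.

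Of 29 interferon-stimulated genes 23 were positive in the slide C pair, against 50.7% of all genes. In the fit with slide as a block 13 were positive, against 54.5% of all genes. There control 5 was high (list mean 7.82 against 6.79 to 6.98 on controls 1 to 4). Ifitm2, an antiviral membrane protein, had a change of 0.25 (SE 0.13). Cx3cl1, a chemokine held on the cell surface, read 8.80, 8.67, 8.83 and 8.53 on STAT3C arrays and 8.48, 8.38, 7.96, 7.92 and 7.83 on controls. The lowest STAT3C value was just above the highest control, and the Cx3cl1 change was 0.55 (SE 0.17). With CEBPB present Cx3cl1 rose by 0.64 (SE 0.17, limma adjusted p 0.0337), and in C17.2, where 2.07% of all genes were called, its difference of 1.72 (SE 0.41, limma adjusted p 0.0242) was among the calls, with slide and vector not told apart. Of 46 tested stress and amino acid response genes, 30 had a positive change, against 54.5% of all genes, and 0 were called. Their changes ran from -0.746 to 0.395 with a median of 0.03. In the slide C pair 30 of the 46 were negative, against 49.1% of all genes. Chaperones of the endoplasmic reticulum among them included Hspa5 with a change of 0.40 (SE 0.12) and Sdf2l1 with 0.37 (SE 0.12). Sox2, the transcription factor of neural stem cells, had a change of -0.37 (SE 0.18), with -0.45 on slide A and -0.17 there without control 3.

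**Figure D4:**
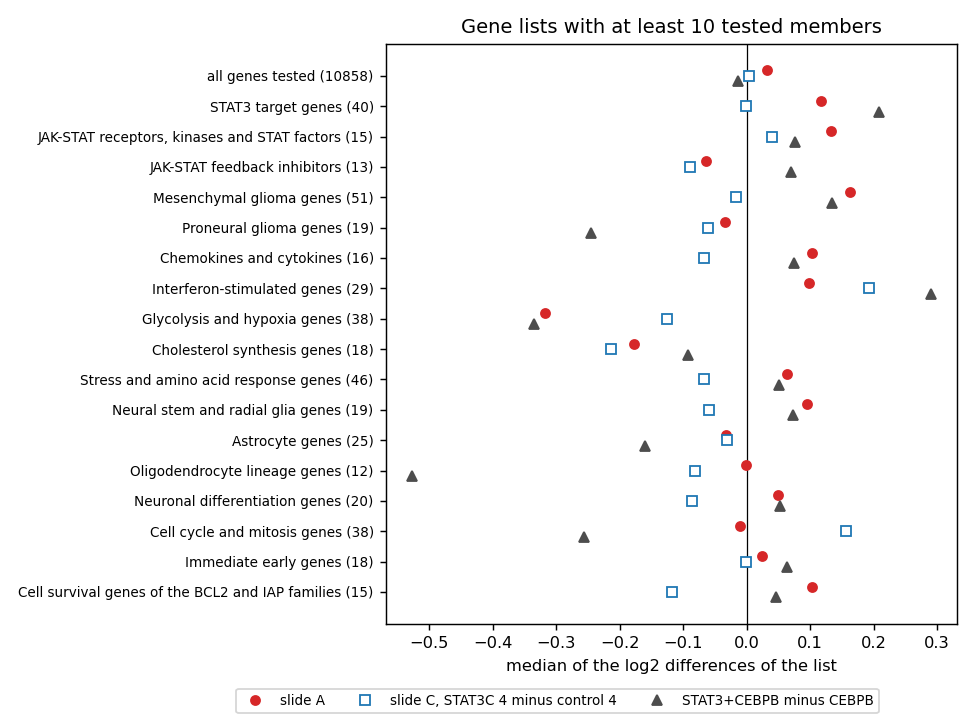
Median log2 difference of each gene list with at least 10 tested members (number in brackets): red points are slide A, blue squares STAT3C 4 minus control 4 and black triangles both factors minus CEBPB. Glycolysis and hypoxia genes (-0.32, -0.13 and -0.34) and cholesterol genes (-0.18, -0.21 and -0.09) are left of 0 on all 3, and so are the proneural (-0.03, -0.06 and -0.25), astrocyte (-0.03, -0.03 and -0.16) and oligodendrocyte lists (-0.00116, -0.08 and -0.53); all genes tested lie at 0.03, 0.00 and -0.01.

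When the 4 arrays on which Xist was not detected, 2 of them in the comparison, were left out of the NSC fit, limma called 19 genes (0.175%), 15 higher (0.138%) and 4 lower (0.0368%). With those arrays gone the STAT3C effect rests on slide A alone, 3 arrays against 3, and only the spread comes from the other arrays, so strip position and vector cannot be told apart for these calls. The 19 genes were read on STAT3C 4 and control 4, which that fit did not use. There 16 of 19 had the same sign (84.2%), against 50.2% of all genes, with a median of 0.28 in the direction of the call against 0.77 on slide A. Leaving control 3 out as well gave 36 called genes (0.332%), 18 of them among the 19, 27 higher (0.249%) and 9 lower (0.0829%), and 23 of the 36 had the same sign in the pair (63.9%). Down-weighting arrays that depart from their group gave 117 called genes (1.08%), 17 of them among the 19.

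Among the higher genes of the 19, Tuft1, first known from tooth enamel, read 7.53, 7.47 and 7.58 on STAT3C arrays 1 to 3 and 6.69, 6.76 and 6.49 on controls 1 to 3, a rise of 0.88 (SE 0.10, limma adjusted p 0.0069). It read 6.0 on STAT3C 4, above control 4 (5.38) and below control 5 (6.75). Niban2 read 8.29, 8.27 and 8.39 against 7.40, 7.47 and 7.29 on the same arrays, a rise of 0.93 (SE 0.13, limma adjusted p 0.0179), and its difference within the slide C pair was 0.45. Fas, the death receptor, rose by 0.65 (SE 0.11, limma adjusted p 0.036) and Reln, a secreted guidance protein of the developing cortex, by 0.77 (SE 0.13, adjusted p 0.036). In the pair Fas differed by 0.26 and Reln by 0.03. Pcsk6, Rab15 and Lgals3 were also among the 15.

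Further higher genes were the chromatin gene H4c8 (0.96), the gastrin and cholecystokinin receptor Cckbr (0.94), the syntaxin Stx11 (0.73), the collagen Col18a1 (0.64), the phosphodiesterase Pde2a (0.63), Sapcd1 (0.59), Washc1 of the endosome (0.58) and the repulsive guidance protein Sema3f (0.55), with log2 changes in brackets. Cckbr (-0.03), Sapcd1 (-0.27) and Washc1 (-0.01) were the genes that went the other way in the pair. The 4 lower genes were Dnali1 at -0.83, 6530402F18Rik at -0.79, Scrg1 at -0.78 and Chst3, a chondroitin sulfotransferase, at -0.67. Scrg1 read 6.25, 6.51, 6.29 and 8.93 on STAT3C arrays and 7.02, 7.02, 7.36, 9.57 and 8.50 on controls, lower on slide A and lower than control 4 on slide C. On arrays with both factors minus CEBPB alone, 15 of the 19 genes had the same sign, against 5579 of all 10858 genes. Slide B, which held most of these arrays, repeats the position layout of slide A. Pcsk6, Reln, Scrg1 and Chst3 passed the limma adjusted threshold in the direction of the call, and Cckbr passed it in the opposite one, with -0.94. Over all genes 452 passed it in the same direction and 250 in the opposite one.

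**Figure D5:**
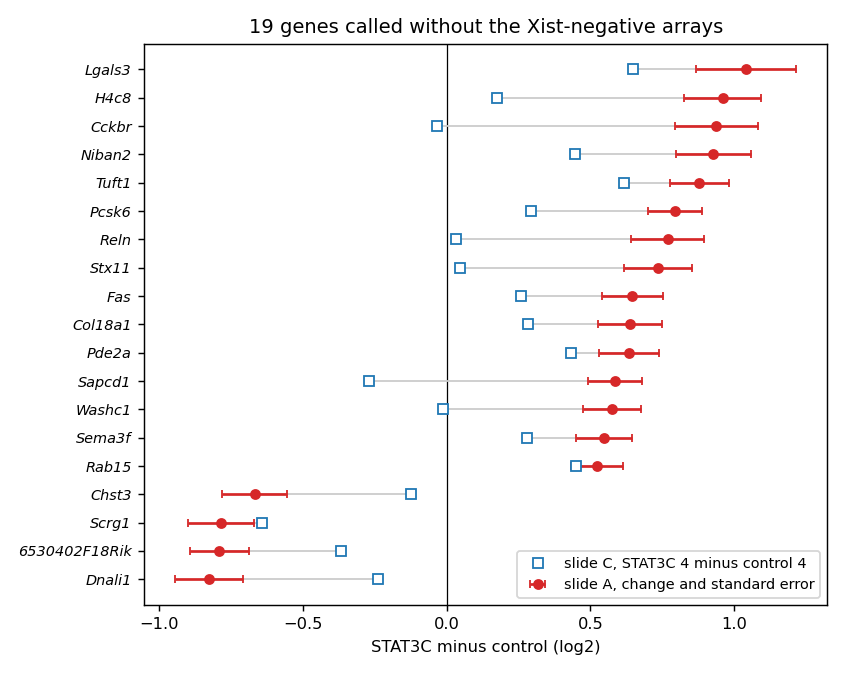
STAT3C minus control log2 difference of the 19 genes called without the Xist-negative arrays: red points with the standard error are slide A, blue squares STAT3C 4 minus control 4. The squares lie on the same side of 0 as the points for 16 of 19 genes, and closer to 0 in each of them.

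The STAT3C effect without CEBPB was set against the effect with it in an interaction term, which called 4 genes (0.0368%). The effect without CEBPB rests on slides A and C and the effect with it on slides B and C. CEBPB and slide can therefore not be fully told apart in this term. Control 5 and array 5 with both factors, which departed alike on slide C, enter the effects with opposite sign. Aak1, a kinase of clathrin coats, had an interaction of -1.12 (SE 0.18), Hs3st3a1, a heparan sulfotransferase, -1.44 (SE 0.23), Necab2, a neuronal calcium-binding protein, 0.95 (SE 0.15) and Zfhx2, a homeobox factor, -1.64 (SE 0.27), each at a limma adjusted p of 0.0435. The STAT3C effect without CEBPB was -0.14 for Aak1, -0.28 for Hs3st3a1, 0.17 for Necab2 and -0.42 for Zfhx2. With CEBPB it was 0.98 for Aak1, 1.15 for Hs3st3a1, -0.78 for Necab2 and 1.21 for Zfhx2. With Xist status as a further block the interaction called 189 genes (1.74%).

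Against the C17.2 line in a joint fit of all 34 arrays, 1 gene of 11713 (0.00854%) was called for a different STAT3C effect. It was Mgp, the matrix Gla protein that inhibits calcification, whose probe was detected on 0 STAT3C and 0 control arrays of NSC and was not among the genes tested there. It was detected on 4 STAT3C arrays and 1 control array of C17.2. The call is therefore no measured difference in NSC, and in C17.2 slide and vector cannot be told apart.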

How the data were processed

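Total RNA was hybridised to Illumina MouseWG-6 v2 arrays of 45281 probes. Per the file headers, the authors deposited a mean bead signal, an intensity on a linear scale with values below 0, a detection p-value per probe and a bead number, which is another quantity and was not tested. BeadStudio and lumi are named per the submitters' processing notes, with no version. The deposited series matrix, read as log2 values, was used only as an alternative. Its order of probes matched the signals on each array, but its transform and centring are not stated. Platform annotation gave 1 symbol for 34885 probes, several for 18 and none for 10378, and only the first were used.

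Signals of the 18 NSC arrays were normalised with neqc of limma 3.58.1 (R 4.3.3, offset of 16, quantiles, log2). A probe was kept with a detection p below 0.05 on at least 4 arrays, and the probe of highest mean stood for its gene. The 4 groups and slide were fitted with lmFit and eBayes, and two-sided p-values were adjusted by Benjamini-Hochberg over 10858 genes. The test was checked on simulated data. 0 pairs of arrays were identical. The gene lists, their members and the comparison were chosen with earlier results of these data known. Named genes were the module regulators, the 10 higher and 10 lower genes of lowest p, 3 genes of lowest p per list, and markers. The genes called without Xist-negative arrays or by the interaction, and Socs3, Pim1, Myc, Bcl2l1, Gadd45g, Pfkl, Pgk1, Ldha, Pdk1, Ankrd37, Egln3 and Lgals3 were chosen after their values were seen. Alternatives were other normalisations, filters, probe rules, weights, blocks and left-out arrays, of which 3 were added after seeing the data. The number of arrays limits the precision.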

Additional observations from a re-analysis of the deposited data

Results flagged for a closer look

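In 73 genes named in the text, 146 groups of 4 or 5 arrays were searched for an array far from the others, and 39 were found. The cut-off marks about 1 in 20 groups of like arrays, but arrays of a group here differ in slide and Xist status. Some of the genes were also chosen after their values were seen. That rate is therefore no background for the 39. STAT3C 4, the STAT3C array of slide C, accounts for 27 of them. Its log2 level was far above STAT3C arrays 1 to 3 for Vegfa (9.91), Whamm (6.62), Dnali1 (7.29), Ddit4 (10.62), Pdk1 (8.09), Pfkl (11.6), Pgk1 (12.54), Ldha (13.16), Ankrd37 (8.12), Scrg1 (8.93), Chst3 (7.74), 6530402F18Rik (6.72). It was far below them for Il6ra (4.61), Runx1 (4.61), Rab15 (7.44), Mrpl49 (9.93), Lgals1 (12.58), Socs3 (6.82), Egln3 (7.45), Lgals3 (5.21), Tuft1 (6.0), Niban2 (6.82), Fas (7.67), H4c8 (5.89), Pde2a (5.34), Cckbr (4.31), Cd44 (8.85). Slide and Xist status differ between this array and the other STAT3C arrays. Control 4, its partner on slide C, stood apart from the other controls with a low level for Socs3 (7.17), Pim1 (4.62), Tuft1 (5.38), Niban2 (6.37), Fas (7.41) and a high one for 6530402F18Rik (7.08). Control 3 was high for Tmtc2 (7.74), Insig1 (10.6), Sox2 (9.48) and low for Bhlhe40 (9.18). Control 2 was high for Wdr53 (5.65), and control 5 for Col18a1 (10.19). The part of slide and Xist status in the levels was not tested gene by gene.

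Effects of STAT3C differed without and with CEBPB in an interaction term for Aak1 (-1.12), Hs3st3a1 (-1.44), Necab2 (0.95) and Zfhx2 (-1.64), each at a limma adjusted p of 0.0435. The effects without and with CEBPB come in part from different slides, so CEBPB and slide cannot be fully told apart. The fitted effect on Mgp in NSC minus that in C17.2 was -2.78. Its probe was detected on 0 of the NSC arrays compared, and in C17.2 slide and vector cannot be told apart.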

How the results depend on the processing

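Genes called for STAT3C against control numbered 0 under every planned normalisation, filter and probe rule, with slide as a fixed or random block or absent, within slide A and with Xist status as a block. They also numbered 0 in each of the 9 fits that left out 1 array, so the range over these fits was 0 to 0. The count was 19 without the Xist-negative arrays and 117 with array weights, which gave control 3 a weight of 0.146 and control 5 one of 0.154. Of alternatives chosen after seeing the data, leaving out controls 3 and 5 gave 18 calls with the 7 arrays alone and 0 in the 18-array fit, and leaving control 3 out of the Xist-positive arrays gave 36. The cause was not tested. The interaction with CEBPB called 4 genes, and 189 with Xist status as a further block. The comparison with C17.2 called 1 gene with and without it. The change became 0.061 for Runx1, 0.15 for Socs3 with no slide term. The change became -0.089 for Zbtb18 with the mean of a gene's probes. The change became -0.019 for Stat3, -0.0056 for Cebpd, 0.23 for Fosl2, 0.17 for Runx1, -0.082 for Zbtb18, 0.22 for Socs3, 0.14 for Bcl2l1 with array weights. The change became -0.077 for Stat3, -0.088 for Cebpd, 0.14 for Fosl2, 0.13 for Runx1, -0.21 for Zbtb18, 0.16 for Socs3, 0.0080 for Myc, 0.091 for Bcl2l1 without controls 3 and 5 (18-array fit and the 7 arrays alone). The change became -0.11 for Stat3, 0.0074 for Cebpb, -0.021 for Cebpd, 0.31 for Fosl2, 0.26 for Runx1, -0.13 for Zbtb18, 0.37 for Socs3, 0.20 for Bcl2l1 without Xist-negative arrays and control 3. The change became 0.027 for Bhlhe40 without control 1. The change became -0.026 for Cebpd, 0.017 for Fosl2, 0.091 for Runx1, -0.16 for Zbtb18, 0.043 for Myc, 0.023 for Bcl2l1 without control 3. Socs3, at -0.05, became 0.18 with slide and Xist status as blocks, 0.40 within slide A, 0.40 without the arrays on which Xist was not detected, 0.036 on the series matrix values, 0.40 without STAT3C 4, 0.21 without control 5. Over the fits that left out 1 array, the change ran from -0.49 to 0.017 for Fosl2, -0.35 to 0.091 for Runx1, -0.39 to 0.027 for Bhlhe40, -0.14 to 0.40 for Socs3, -0.29 to 0.043 for Myc, -0.42 to 0.023 for Bcl2l1, -0.026 to 0.14 for Cebpd and -0.16 to 0.22 for Zbtb18. Of the values of named genes under the alternatives, 1814 kept direction and side of the threshold, 88 passed it only there, 47 changed sign (printed above) and 22 moved. List medians moved by more than the spread between arrays in 45 cases and by less in 602. No paired analysis was possible because replicate numbers follow accession order and pair no arrays. The number of arrays and, for Il1r2, Cracr2a, P4ha2, Il6ra and Sema3f, probes near background limit these values.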
